A study of Mus musculus with 161 samples.

Results

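The degron tag on CTCF was compared with untagged CTCF in cells that had received neither auxin nor doxycycline. The series holds 91 libraries of 5C (chromosome-conformation capture carbon copy). Of these, 7 belong to this comparison, chosen by cell line and treatment alone. The 4 libraries of CTCF-AID cells came from line EN52.9.1, and the 3 libraries of untagged cells came from its parent, E14Tg2a. The study used CTCF-AID cells as the host for CTCF transgenes, so the untreated host is the state from which its depletion and rescue experiments start. 5C reads contacts as ligation products between restriction fragments that carry forward primers and fragments that carry reverse primers, here across the X-chromosome region around Xist and Tsix.

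Both lines are male mouse embryonic stem cells of the 129/Ola background with a single X chromosome per cell, and both were left untreated. In EN52.9.1 both alleles of Ctcf end in the auxin-inducible degron (AID) and eGFP, and a Tir1 transgene sits at a random site. The study reports a lower level of CTCF-AID-eGFP than of untagged CTCF. EN52.9.1 is 1 clone, so the tag, this lower level, Tir1 and whatever else distinguishes the clone from its parent cannot be told apart. The same contrast was read in 15 other untreated libraries, from clones whose endogenous Ctcf lacks the stretch del13-33 near its N-terminus. Of these, 8 libraries came from 2 clones of the CTCF-AID background and 7 from 2 clones of the untagged background. They carry the same difference of background in cells that the first comparison did not use. They cannot separate the tag from other traits of the CTCF-AID background either.

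CTCF binds DNA through its zinc fingers and halts cohesin as it extrudes chromatin loops, and the halted loops give topologically associating domains (TADs) their boundaries. Its motif has a direction, and boundaries typically hold motifs that point into the domains on either side. The AID degron is a plant-derived tag that the F-box protein Tir1 recognises once auxin is bound, after which the tagged protein is ubiquitinated and destroyed. Without auxin the tagged protein is meant to stay in place, though here at the lower level given above. The study states that the insulation of TADs depends quantitatively on the level of CTCF. The comparison asks whether chromosome folding stays the same, and the part of CTCF level in any difference was not tested.

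The tag was introduced at the 3′ end of the Ctcf coding sequence with a Cas9 nickase and a pair of guides, whose target sites are shown because they place the tag. Each is written 5′ to 3′ with its PAM in capitals.

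Guide 1: atcaccggtccatcatgctgAGG

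Guide 2: ctggggccttgctcggcaccAGG

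In mm9, guide 1 matched chr8:108205501-108205520 on the minus strand and overlapped the Ctcf stop codon at chr8:108205517-108205519. Guide 2 matched chr8:108205522-108205541 on the plus strand and began 3 bases after the end of the stop codon. Both sites lie in exon 12 of Ctcf, and neither guide had another perfect match on the chromosomes of the assembly.

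The 7 libraries held between 9491313 and 13746459 counts, over 486 forward and 504 reverse primers of which the authors kept 455 and 467. Primer pairs at 0 made up 59.9%, 43.6% and 48.4% of all pairs in untagged replicates 1, 2 and 4, against 39.1%, 35.2%, 56.4% and 58.9% in CTCF-AID replicates 1 to 4. The libraries fall into 2 runs of consecutive library numbers, a first with replicates 1 and 2 of both lines and a second with untagged replicate 4 and CTCF-AID replicates 3 and 4. In the first run the CTCF-AID libraries had fewer pairs at 0 than the untagged ones, and in the second run they had more. Among all 22 untreated libraries, CTCF-AID del13-33 clone 2 replicate 3 stood apart with 70.7% of pairs at 0. The clones' values over both runs together are also given without it where that moved them by over 1.5 times. They are also given without it for mean insulation, bin calls and the main distance shares. Tests of the clones within runs keep this library, except where both contrasts are compared bin by bin. The study describes its replicates as biological, but no label says which libraries are separate cultures, so p-values measure the spread between these libraries.

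CTCF-AID cells had a lower mean insulation than untagged cells in both runs, by less than a test of 7 libraries could separate from the spread. Insulation is a log2 score that is higher where fewer contacts cross a 20-kb bin within 100 kb, relative to the mean over bins of the same library. Each library was summarised over the 6 boundary bins used by the study. By its methods, these were found in earlier libraries of untreated CTCF-AID cells, leaving out boundaries that remained after auxin. The bins were thus chosen in 1 of the 2 lines compared. Untagged replicates 1, 2 and 4 scored 0.793, 0.804 and 0.867, and CTCF-AID replicates 1 to 4 scored 0.708, 0.691, 0.792 and 0.825. The 2 CTCF-AID libraries of the first run were the lowest of the 7, while replicate 4 lay among the untagged values, so the groups overlapped. The difference was -0.0674 (two-sided exact permutation test, p = 0.229, n = 3 and 4), with a 95% interval from the same test of -0.214 to 0.0973. From raw counts the groups did not overlap, though only by 0.649 in untagged replicate 1 against 0.648 in CTCF-AID replicate 3. The difference was not called there either.

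Within each run the groups did not overlap. In the first run the means were 0.699 for CTCF-AID and 0.798 for untagged cells, a difference of -0.0988. In the second run they were 0.808 and 0.867, a difference of -0.059. Permuting within runs gave a difference of -0.0829 and an exact p of 0.0556, the smallest that 18 arrangements allow. With replicate numbers as pairs, where CTCF-AID replicate 3 had no partner and was left out, the difference was -0.0801 (exact p = 0.25, the smallest possible). In each line the libraries of the second run lay above those of the first.

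**Figure D1:**
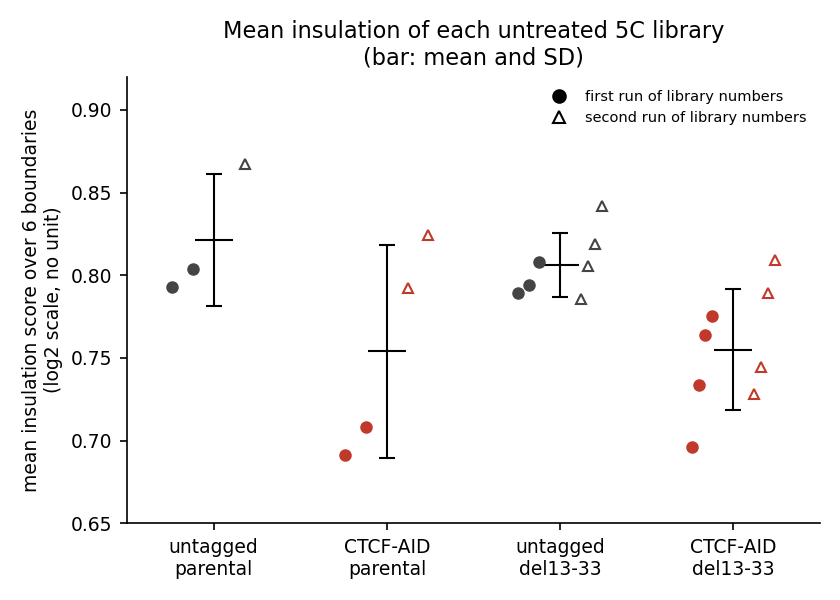
Mean insulation score over 6 boundary bins (vertical axis, log2 scale) of each of the 22 untreated 5C libraries, by line (horizontal axis). Filled circles are the first run of library numbers, open triangles the second, and bars give mean and SD. Within either run the CTCF-AID parental libraries sit below the untagged parental ones, and the del13-33 clones show the same order of means.

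The tag contrast in the del13-33 clones had the same direction and was called over libraries, which come from 2 clones per background. The 7 untagged libraries ran from 0.786 through a median of 0.806 to 0.842, and the 8 CTCF-AID libraries from 0.696 through 0.754 to 0.809. The groups overlapped, with a difference of -0.0513 (two-sided exact permutation test, p = 0.00606, n = 7 and 8) and, within runs, -0.0498 (p = 0.00776, same exact test). Leaving out clone 2 replicate 3 gave -0.0475 (exact p = 0.0105). From raw counts the groups did not overlap and the difference was -0.107 (exact p = 0.000311). The 2 clones of a background resembled each other, with means of 0.795 and 0.815 for untagged and 0.757 and 0.753 for CTCF-AID clones. Per clone the difference was -0.05, with no test for 2 clones against 2. Tests of the clones, here and below, take libraries as units, so their p-values do not measure the spread between clones. The parental difference exceeded the clones' by -0.0161, which was not separated from 0 (p = 0.632, exact permutation of parental and del13-33 labels over 59400 relabellings).

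The 6 boundary bins differed in how they responded. Boundary 2 (chrX:99411149-99431148, no annotated gene) scored 0.90, 0.88 and 0.99 in untagged libraries and 0.69, 0.67, 0.75 and 0.82 in CTCF-AID libraries. All 4 CTCF-AID libraries lay below all 3 untagged ones. The difference was -0.19 (SE 0.048, adjusted p = 0.0805, limma over 193 bins) and -0.21 within runs (adjusted p = 0.0114). In the del13-33 clones the same bin differed by -0.02 (limma adjusted p = 0.671), and by -0.04 without clone 2 replicate 3 (adjusted p = 0.287).

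Boundary 1 (chrX:99151149-99171148, in Nhsl2) scored close to 0 in untagged libraries, at 0.02, -0.01 and -0.02, and at -0.11, -0.11, -0.09 and -0.06 in CTCF-AID libraries. The groups again did not overlap. The difference of -0.08 had an adjusted p of 0.131 in limma, and of 0.0629 within runs. Its counterpart in the clones was -0.11 (adjusted p = 0.0669).

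Boundary 4 (chrX:100671149-100691148) overlaps Xist, the RNA that silences the X chromosome it coats, Tsix, its antisense repressor, and the noncoding gene Enox. It had the highest scores of the 6, at 1.70, 1.80 and 1.90 in untagged and 1.76, 1.69, 1.54 and 1.66 in CTCF-AID libraries. The groups overlapped in CTCF-AID replicate 1. The difference was -0.14 (adjusted p = 0.228, limma), and -0.16 in the clones (adjusted p = 0.111), or -0.10 without clone 2 replicate 3 (adjusted p = 0.113).

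Boundary 5 (chrX:101211149-101231148, no gene and no CTCF peak) scored 0.97, 0.90 and 0.91 against 0.85, 0.85, 0.90 and 0.93, a difference of -0.04 (adjusted p = 0.66, limma). At boundaries 3 and 6 the 2 runs of CTCF-AID libraries lay on opposite sides of the untagged ones. Boundary 3 (chrX:100451149-100471148, in 4930519F16Rik) scored 0.40, 0.47 and 0.54 in untagged libraries, 0.34 and 0.37 in the first CTCF-AID run and 0.65 and 0.66 in the second. Boundary 6 (chrX:103211149-103231148) overlaps Cox7b, a subunit of cytochrome c oxidase, and Atp7a, a copper transporter. It scored 0.76, 0.78 and 0.88 in untagged libraries, 0.71 and 0.68 in the first CTCF-AID run and 1.01 and 0.94 in the second. The differences were 0.03 and 0.02 (adjusted p = 0.863 and 0.899, limma), and both turned negative within runs, at -0.0067 and -0.012. No boundary bin was called by the unblocked fit.

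**Figure D2:**
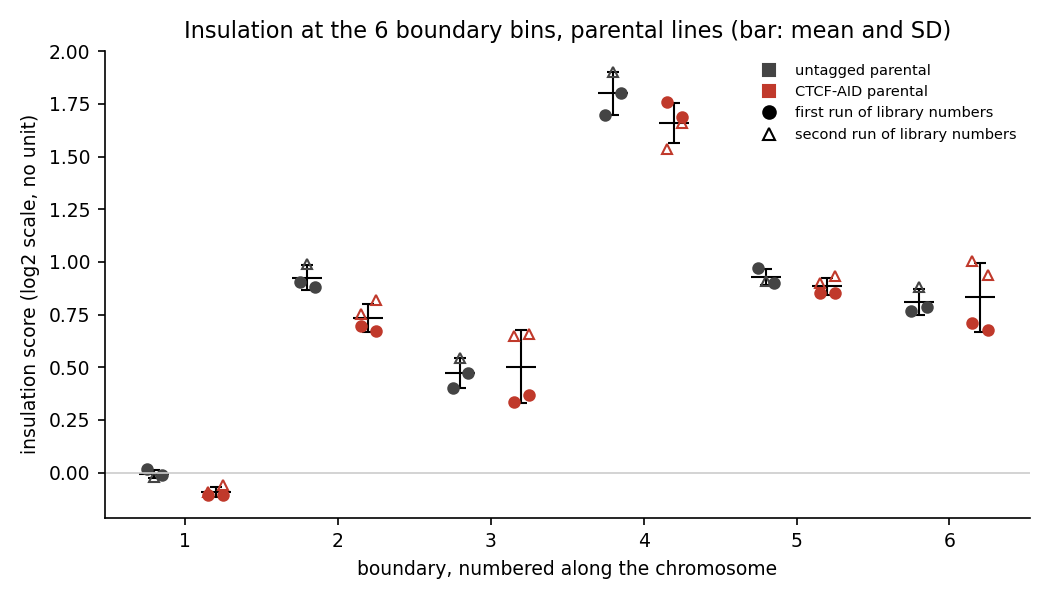
Insulation score (vertical axis, log2 scale) at the 6 boundary bins (horizontal axis, numbered along the chromosome) in each parental library, untagged in grey and CTCF-AID in red. Shapes give the run of library numbers and bars the mean and SD. Groups are apart at boundaries 1 and 2, while at boundaries 3 and 6 the CTCF-AID libraries split by run.

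Over the whole profile, both lines had nearly the same shape at different amplitude. Mean scores of the 193 scored bins (of 230) correlated at 0.994 between the lines, with a slope of 0.933 for CTCF-AID on untagged. This is a description across bins that share fragments and windows. The median absolute difference was 0.04, and 2 bins differed by more than 0.2. The SD of the profile over bins was 0.550, 0.551 and 0.574 in the untagged libraries and 0.509, 0.505, 0.543 and 0.542 in the CTCF-AID libraries. All CTCF-AID profiles were thus flatter than all untagged ones, by -0.0333 on average (exact permutation p = 0.0857, interval -0.0786 to 0.00826; within runs -0.0383, exact p = 0.0556, the smallest possible). In the clones the difference was -0.0175 (exact p = 0.0196).

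Bin by bin, 3 of 193 bins were called at an adjusted p under 0.05 (limma, 1.55%), 2 lower (1.04%) and 1 higher (0.518%) in CTCF-AID cells, and 41 had an unadjusted p under 0.05. The lowest was the bin directly before boundary 4 (chrX:100651149-100671148), inside Xist and Tsix, the most insulated place of the map. It scored 2.23, 2.28 and 2.36 in untagged and 2.08, 2.10, 2.03 and 2.03 in CTCF-AID libraries. The groups did not overlap and differed by -0.23 (SE 0.039, adjusted p = 0.0153, limma). In the clones the difference was -0.16 (adjusted p = 0.0765).

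The other lower bin lies directly after boundary 2 (chrX:99431149-99451148) and overlaps Cited1, a transcriptional coactivator. It scored 0.54, 0.58 and 0.55 in untagged libraries and 0.36, 0.30, 0.29 and 0.39 in CTCF-AID libraries, again apart, with a difference of -0.22 (SE 0.038, adjusted p = 0.0153, limma). The clones gave -0.08 (adjusted p = 0.324). The higher bin (chrX:100731149-100751148, no annotated gene) lies in a trough just beyond boundary 4. Untagged libraries scored -0.12, -0.16 and -0.14 there, and CTCF-AID libraries -0.03, 0.03, 0.01 and -0.01. The trough was shallower by 0.14 with the tag (SE 0.028, adjusted p = 0.0292, limma), and it was called in the clones too, at 0.12 (adjusted p = 0.0463).

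These calls depended on few libraries. None remained without untagged replicate 2 (smallest adjusted p = 0.107), untagged replicate 4 (0.0592) or CTCF-AID replicate 2 (0.0759), only the Xist and Tsix bin remained without untagged replicate 1, and only the Cited1 bin without CTCF-AID replicate 4. Without CTCF-AID replicate 3 both lower bins remained, the trough bin did not, and the bin before the Xist and Tsix bin (chrX:100631149-100651148) was called as lower. All 3 remained without CTCF-AID replicate 1. With replicate numbers as a block no bin was called (limma, smallest adjusted p = 0.105, 44 bins at an unadjusted p under 0.05), and none was called from raw counts or with medians in place of means over primer pairs.

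With the run as a block, 19 of 193 bins were called (limma, 9.84%), 12 lower (6.22%) and 7 higher (3.63%) in CTCF-AID cells. They included the 3 bins called without the block, and in 18 of the 19 the groups did not overlap. Lower bins lay at boundary 2 and the bin after it, at Chic1, at the Xist and Tsix bin, inside C77370, at Magee1, and along Atrx and Magt1. Those at Chic1, at Xist and Tsix, and inside C77370 were single bins. Adjacent bins at the other places share windows and are not separate results. Atrx encodes a chromatin remodeller and Magt1 a magnesium transporter. Near Atrx the bin chrX:103111149-103131148 scored 0.14, 0.18 and 0.19 in untagged and 0.02, 0.05, 0.05 and 0.06 in CTCF-AID libraries, a difference of -0.12 (limma adjusted p = 0.079, and 0.0191 within runs). Its neighbours chrX:103131149-103151148 and chrX:103151149-103171148, the latter in Magt1, differed by -0.11 and -0.12 (adjusted p of 0.0805 and 0.094, limma).

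Higher bins lay in troughs and on flanks beside boundaries. The bins on either side of the called trough beyond boundary 4 differed by 0.12 (chrX:100711149-100731148, pseudogenes Gm9785 and Gm9157) and 0.11 (chrX:100751149-100771148, which overlaps the microRNA genes Mir421 and Mir374). A trough after boundary 3 (chrX:100491149-100511148) and one at the pseudogene Rab9b-ps1 (chrX:102671149-102691148) each differed by 0.11. All 4 had an adjusted p of 0.0961 without the block and were called within runs (limma). Rlim, which encodes a ubiquitin ligase that promotes Xist expression, overlaps a further higher bin.

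**Figure D3:**
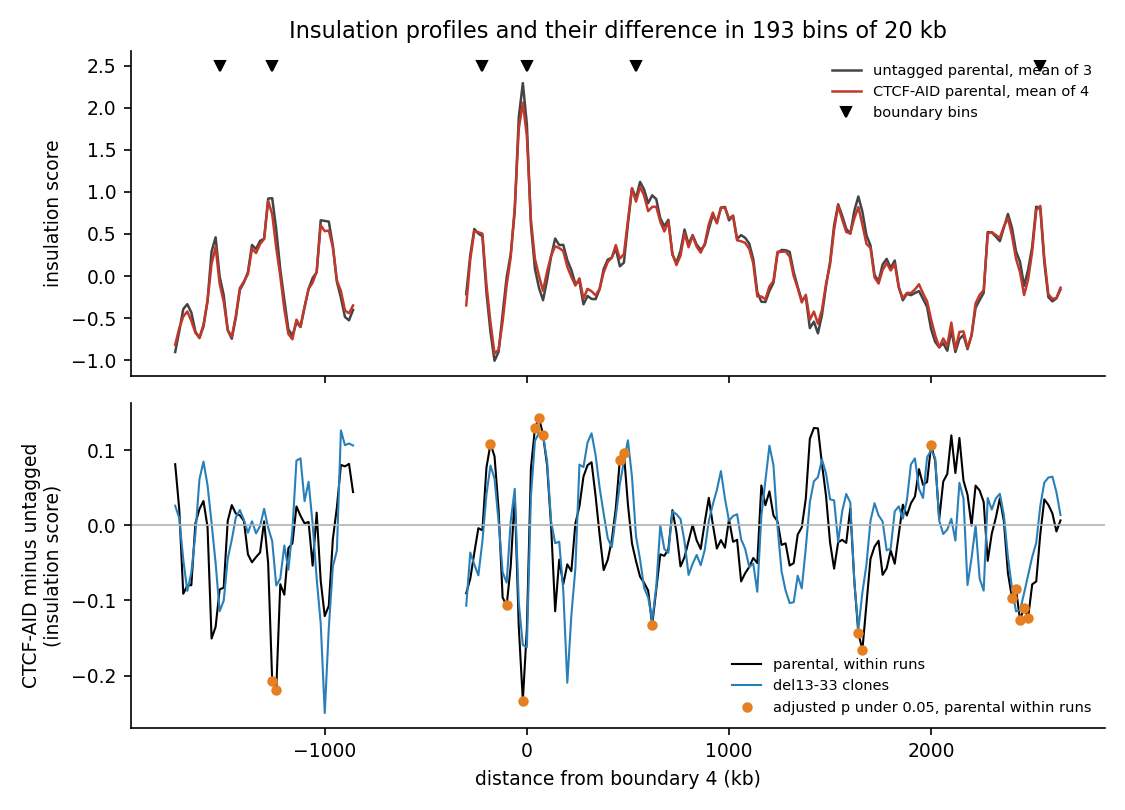
Mean insulation score (upper panel, log2 scale) and its difference between CTCF-AID and untagged cells (lower panel) in 193 bins of 20 kb, against the distance from boundary 4 in kb. Black is the parental difference within runs, blue the difference in the del13-33 clones, and orange dots are the 19 bins called within runs. Peaks of insulation are lower and several troughs shallower with the tag, and both difference curves follow each other over much of the region.

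Groups of parental libraries did not overlap in 39 of 193 bins (20.2%), of which 22 were lower (11.4%) and 17 higher (8.81%) with the tag. Bins with scores above 0 were mostly lower in CTCF-AID cells and bins with scores under 0 mostly higher. Scores are relative to each library's own mean, so lower peaks and shallower troughs are not separate changes in absolute contact. To keep this apart from the libraries compared, bins were sorted by their mean score in the untagged del13-33 clones. Among 46 bins over 0.5 the median difference was -0.03, with 34 lower and, of the groups that did not overlap, 10 lower and 0 higher. Among 60 bins of 0 to 0.5 the median was -0.04, with 47 lower and, of those that did not overlap, 6 lower and 3 higher. Among 87 bins under 0 the median was 0.03, with 23 lower and, of those that did not overlap, 6 lower and 14 higher. Over all 193 bins the median was -0.0097, with 104 lower.

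Differences in the parental lines and in the clones ran together. They correlated at 0.75 over the 193 bins, as a description across bins with shared windows, and 78.2% of bins had the same sign. All 39 bins whose parental groups did not overlap, and all 19 called within runs, had the same sign in the clones. In the clones 8 bins were called (limma, 4.15%), 4 in each direction (2.07%). Without clone 2 replicate 3 these 8 remained and 3 more were called as higher. Within runs, with all 15 clone libraries, 33 were called (17.1%), 18 lower (9.33%) and 15 higher (7.77%). Among the 8, 4 were also called in the parental lines within runs: the trough bin and its neighbour at Mir421 and Mir374, a bin in C77370 (chrX:101291149-101311148) and a bin at Magee1 (chrX:102311149-102331148). The difference between both contrasts was called in 0 of 193 bins (limma interaction, 0.0%; 2 bins at an unadjusted p under 0.05) and, with the run as a block, in 1 (0.518%), boundary 2, by -0.19 (adjusted p = 0.0218; -0.17 and 0.0175 without clone 2 replicate 3).

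**Figure D4:**
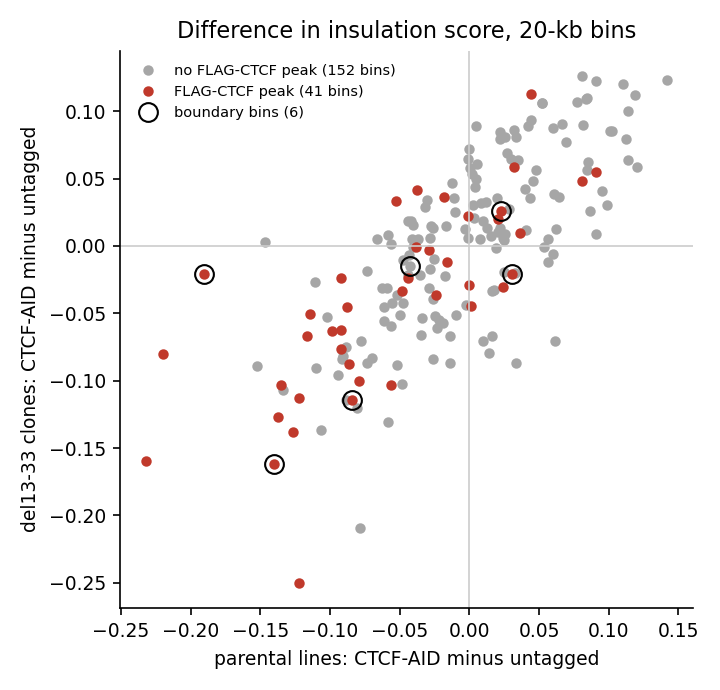
Difference in insulation score between CTCF-AID and untagged cells in the parental lines (horizontal axis) and in the del13-33 clones (vertical axis), 1 point per scored bin (193 bins). Red bins hold a FLAG-CTCF peak (41), grey bins hold none, and rings mark the 6 boundary bins. Points run from lower left to upper right, with most red points at the lower left and boundary 2 near the horizontal axis.

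Bins that hold CTCF sites lay more often on the lower side. The series' list of 49682 FLAG-CTCF peaks was made in cells that express the full-length transgene after auxin and doxycycline, not in these lines, and 78 of its peaks fall in the 5C region, in 54 of the 230 bins. Of the 41 scored bins with a peak, 31 had a lower score in CTCF-AID cells, with a median of -0.05, and 2 were called (against 1.55% of all bins). Of the scored bins without a peak, 73 were lower, with a median of 0.0032, and 1 was called. Groups did not overlap in 12 bins with a peak that were lower and 2 that were higher, and in 10 and 15 bins without a peak. Over all 193 scored bins these were 22 lower (11.4%) and 17 higher (8.81%). In the clones, 30 of the 41 bins with a peak were lower, with a median of -0.03, against 94 of all 193 scored bins, with a median of 0.0047. Bins with a peak are also more insulated bins, and no test separated the 2 properties.

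Peaks of boundary 2 and boundary 4 are printed because the called bins lie beside these boundaries. Each is 200 bases of mm9 on the plus strand, and capitals mark a match to 12 letters of the core CTCF motif (CC, any 3 bases, AG, any 2 bases, GGC), which was searched on both strands.

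Boundary 2, chrX:99414572-99414771: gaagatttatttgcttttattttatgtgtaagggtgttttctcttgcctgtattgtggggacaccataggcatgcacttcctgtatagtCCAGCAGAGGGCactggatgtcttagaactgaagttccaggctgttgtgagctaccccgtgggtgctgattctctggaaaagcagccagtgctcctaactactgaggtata

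Boundary 2, chrX:99415083-99415282: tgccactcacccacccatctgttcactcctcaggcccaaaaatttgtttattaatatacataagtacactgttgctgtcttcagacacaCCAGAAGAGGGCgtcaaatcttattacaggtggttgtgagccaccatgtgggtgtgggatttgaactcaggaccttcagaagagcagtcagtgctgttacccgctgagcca

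Boundary 4, chrX:100676984-100677183: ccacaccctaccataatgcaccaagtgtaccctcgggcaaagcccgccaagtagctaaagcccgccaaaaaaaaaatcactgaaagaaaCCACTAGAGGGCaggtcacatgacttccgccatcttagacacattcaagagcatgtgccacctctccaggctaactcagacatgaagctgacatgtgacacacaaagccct

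Boundary 4, chrX:100679482-100679681: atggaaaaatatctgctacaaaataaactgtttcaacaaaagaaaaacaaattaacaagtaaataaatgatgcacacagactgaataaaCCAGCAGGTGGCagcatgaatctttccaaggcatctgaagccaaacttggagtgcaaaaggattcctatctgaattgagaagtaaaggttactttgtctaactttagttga

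The letters occur in 50.8% of all peaks of the list and in 39 of the 78 peaks of the region. All 4 matches printed are on the plus strand. Boundary 2 and boundary 4 each hold 1 further peak without these letters, and the peaks of the called bins beside them (1 after boundary 2, 2 before boundary 4) have none, which says only that these letters are not in those windows.

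The share of contacts in 5 distance classes differed by at most 1.88 percentage points. The share of corrected signal at 500 to 1000 kb was 14.3%, 14.3% and 14.8% in untagged libraries and 15.0%, 15.0%, 15.7% and 15.6% in CTCF-AID libraries. All CTCF-AID values lay above all untagged ones, by 0.89 percentage points (exact permutation p = 0.0286, the smallest possible, adjusted p = 0.143 over 5 distance classes, interval 0.0188 to 1.76). Contacts at 40 to 200 kb made up 46.2%, 46.8% and 45.3% in untagged and 45.5%, 45.1%, 43.4% and 42.9% in CTCF-AID libraries. The groups overlapped in 1 library of each line, and the difference was -1.88 percentage points (exact p = 0.143, adjusted p = 0.357, interval -5.05 to 1.01). At 1000 to 2000 kb the difference was 0.727 (exact p = 0.257), at 200 to 500 kb 0.0253 (p = 1.0) and over 2000 kb 0.235 (p = 0.771). None of the 5 classes was called (0.0%), and within runs no adjusted p was below 0.0926, where the raw p of 3 classes (40 to 200, 500 to 1000 and 1000 to 2000 kb) was the smallest possible.

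In the clones the same 2 classes differed by -2.45 percentage points at 40 to 200 kb and 0.799 at 500 to 1000 kb (exact permutation, adjusted p = 0.0602 for both). Within runs both were called (exact permutation, adjusted p = 0.00102), as was 1000 to 2000 kb (0.00204). The tests within runs kept clone 2 replicate 3 and were not repeated without it. Without clone 2 replicate 3, whose share at 40 to 200 kb was 37.7%, the differences were -1.68 and 0.608 (adjusted p = 0.0976 for both, exact permutation).

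**Figure D5:**
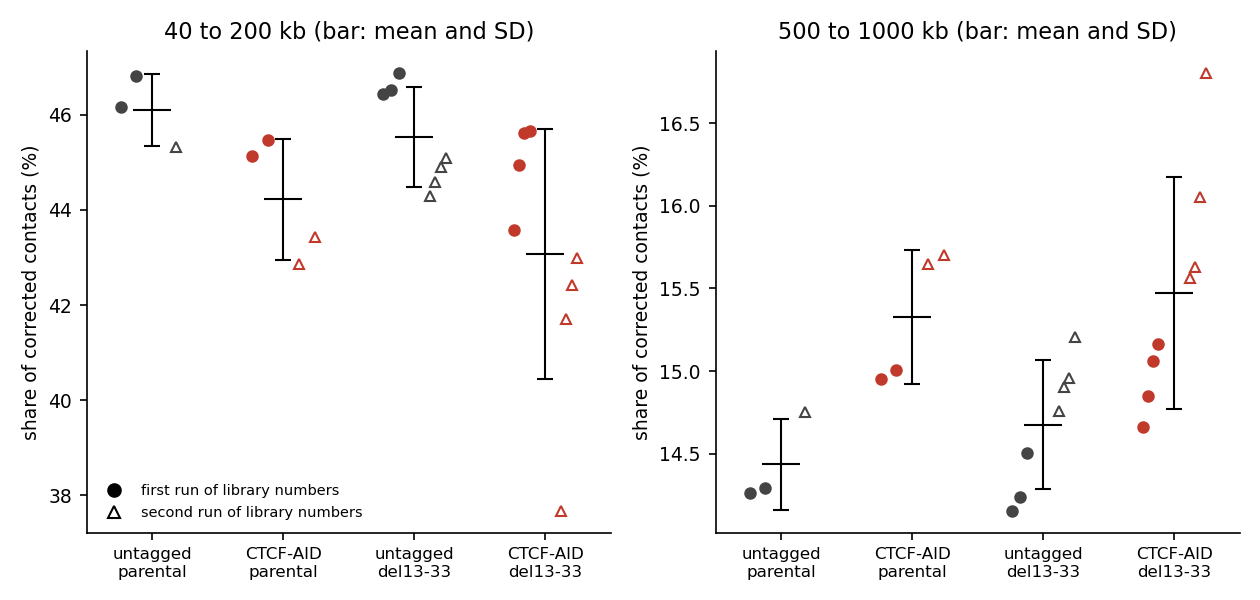
Share of corrected contacts (vertical axes, percent, not starting at 0) at 40 to 200 kb (left) and 500 to 1000 kb (right) in the 22 untreated libraries by line (horizontal axis). Circles and triangles are the 2 runs of library numbers and bars give mean and SD. With the tag, means are lower on the left and higher on the right, and 1 del13-33 library lies at 37.7% on the left.

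Contacts across boundaries were read as mean log2 of observed over expected contacts between the segments that meet there, up to 1000 kb. Across boundary 4, at Xist and Tsix, untagged libraries gave -1.47, -1.52 and -1.59 and CTCF-AID libraries -1.24, -1.28, -1.47 and -1.37. The groups did not overlap, although untagged replicate 1 and CTCF-AID replicate 3 were equal to 2 decimals. The difference of 0.19 had an exact permutation p of 0.0571 and an adjusted p of 0.743 over 13 values (0.10 in the clones, p = 0.0788, adjusted p = 0.907). Differences across the other 5 boundaries were also positive, from 0.02 at boundary 5 to 0.14 at boundary 3, and differences within the 7 segments lay between -0.0078 and 0.05. In the clones the differences across boundaries 2 and 6 were negative, at -0.03 and -0.0076, and those across the other 4 positive. Without clone 2 replicate 3 boundary 2 gave -0.02 and boundary 6 turned to 0.03. None of the 13 parental values was called (0.0%, lowest adjusted p among the other 12 of 0.929).

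Contacts between CTCF sites did not separate the lines. Over 344 bin pairs at 100 to 1000 kb with a peak in both bins, mean log2 of observed over expected was 0.10, -0.0022 and 0.0054 in untagged and 0.07, 0.08, 0.02 and -0.014 in CTCF-AID libraries. Values of both lines were mixed, with a difference of 0.0058 (exact permutation p = 0.914, interval -0.121 to 0.0971) and, in the clones, 0.04 (exact p = 0.107).

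At the level of single bin pairs, 1 of 13323 was called (limma on log2 of corrected signal + 0.5, 0.00751%), and 593 had an unadjusted p under 0.05, 403 of them higher in CTCF-AID cells and 190 lower. This split was 317 to 248 without CTCF-AID replicate 2 and 542 to 225 within runs. The 593 pairs are fewer than that threshold would give by chance alone. The called pair joins the Rlim bin chrX:101171149-101191148 with chrX:102211149-102231148 (U6, Gm9673), 1040 kb away. It rests on 2 kept primer pairs, which gave 0, 0 and 0 counts in untagged and 11, 17, 15 and 15 counts in CTCF-AID libraries. The groups are apart, at few counts, and the difference of 2.72 in log2(signal + 0.5) (adjusted p = 0.0143, limma) depends on the constant added. Signal was 0 in every untagged library and 2.81 on average in CTCF-AID libraries. The pair thus passed the filter on mean signal only through the CTCF-AID libraries. In the clones the pair went the other way, by -1.32 (adjusted p = 0.784), with counts above 0 in 6 of 7 untagged and 3 of 8 CTCF-AID libraries. The call was lost within runs (adjusted p = 0.0592), with replicate numbers as a block (0.863) and with any 1 library left out (0.0909 to 0.147), while without CTCF-AID replicate 2 another pair, outside the 10 at the ends of the ranking, was called (adjusted p = 0.00531).

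The other 9 pairs at the ends of the ranking were not called (adjusted p of 0.137 to 0.497, limma) and rest on 1 to 3 kept primer pairs each. Each had a mean signal under 0.5 in 1 line and so passed the filter on mean signal only through the other. Among these, a pair of an Hdac8 bin, which encodes a histone deacetylase, with a bin at Enox gave 31, 41 and 15 counts in untagged and 9, 0, 0 and 0 counts in CTCF-AID libraries. It had counts above 0 in clones of both backgrounds, in 5 of the 8 CTCF-AID and 6 of the 7 untagged clone libraries.

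Taken by distance, bin pairs at 500 to 1000 kb had a median difference of 0.09, with 61.0% of 3540 pairs higher in CTCF-AID cells, while pairs at 40 to 200 kb had a median of -0.02, with 45.0% of 1523 higher. Within runs these medians were 0.12 and 0.02, so that of the shorter distance changed sign. Groups did not overlap in 711 of the 13323 pairs (5.34%), with 522 higher (3.92%) and 189 lower (1.42%) in CTCF-AID cells. Chance orderings of 3 against 4 libraries separate groups at a similar rate, so the total is no excess. Over all pairs the median difference was 0.05, and 0.0057 when each contact was divided by the mean of its distance in its library. Without that division it was 0.0088, 0.0027, 0.09 and 0.10 when CTCF-AID replicate 1, 2, 3 or 4 was left out, and 0.02 without untagged replicate 4.

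The deposited counts gave no call. Of 18803 bin pairs 0 passed (edgeR quasi-likelihood test, 0.0%; DESeq2 also 0), with 567 at an unadjusted p under 0.05 in edgeR and 728 in DESeq2. Both counts are lower than that threshold would give by chance alone. Of the 567, 272 were lower and the rest higher in CTCF-AID cells, while with the run as a block 471 were lower and 345 higher. With changes drawn into data simulated from these libraries, at their own depth, number and spread, edgeR recovered 9.28% of 2-fold and 47.6% of 4-fold changes. For limma, shifts of 1 and 2 in log2 of corrected signal with its added constant were recovered at 17.1% and 63.2%. Such shifts are not fold changes of contact, so the figures of edgeR and limma are for unlike changes. Of the calls in these simulations, 12.1% were false for edgeR and 2.5% for limma. For insulation, limma recovered 100% of simulated differences of 0.3, placed in 19 of 193 bins. Another 19 bins changed by 1 in the same simulation, and errors were drawn independently per bin. Most 2-fold changes of counts between single bin pairs were therefore not recovered by edgeR, nor were most shifts of 1 by limma. The recovery for insulation holds for that simulation, where more bins changed than were called in the data. It does not show that a change of 0.3 would be called in any bin. At boundaries 3 and 6 the exact permutation intervals were -0.36 to 0.39 and -0.34 to 0.43, so 0.3 was not excluded. Those at boundaries 2 and 4 also reached past a fall of that size, and those at boundaries 1 and 5 did not.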

How the data were processed

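Libraries were grouped by line and treatment from the labels. For 5C, reads were assigned to primers in mm9, and the authors deposited raw counts by forward and reverse primer. The deposited signal is that count after the authors' iterative correction, with poorly covered primers left out. In the first run the parental libraries' corrected matrices hold forward against reverse primers, in the second both orders. Among first-run clones, the untagged libraries hold forward against reverse primers. CTCF-AID clone 1 replicates 1 and 2 and clone 2 replicate 1 hold both orders, so there the form partly follows the tag. From either form only entries of forward against reverse primers were read. No molecular identifiers were used. The FLAG-CTCF peak list is deposited as mm9 positions only.

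Here each corrected matrix was scaled to a sum of 1000000 and averaged in 20-kb bins, with the second diagonal's mean put in the first 2. Insulation used a 100-kb square with at least 50% of it measured, whose mean contact was divided by the mean over the library's scored bins. Bin pairs started at the third diagonal and needed a mean signal of 0.5 or a mean count of 10. Domain values are log2 of observed over expected, from 40 to 1000 kb. limma 3.58.1 (trend) and edgeR 4.0.16 (TMM) in R 4.3.3 tested bins and bin pairs with Benjamini-Hochberg adjustment, called under 0.05, and DESeq2 1.42.0 was an alternative. Single values were tested by two-sided exact permutation over libraries, and 95% intervals came from inverting that test. The fits were tested on simulated data.

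Equal replicate numbers deviated together from their group means (correlations of 0.117, 0.309 and 0.295 for numbers 1, 2 and 4), so numbers counted as pairs. Libraries of 1 run with other numbers did so too (0.171 to 0.366), and libraries of different runs did not (-0.393 to -0.117). No 2 untreated libraries shared over 3.17% of equal counts.

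Named bins are the 6 boundaries and the 5 with the largest moderated t at either end, as are 10 bin pairs, of which 2 are described singly, 1 of them chosen after its values were seen. Genes were named by overlap with the mm9 annotation. Others were named after their values were seen. Comparison, boundaries, lists and tests were chosen with earlier results of these data known. Alternatives were other corrections, windows, bins, pseudocounts, filters, fits, blocks by run or replicate number, and each library left out. Treated libraries were not used here.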

Additional observations from a re-analysis of the deposited data

Results flagged for a closer look

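At boundary 2 (chrX:99411149-99431148) the tag contrast of the parental lines differed from that of the del13-33 clones by -0.19 in a limma interaction with the run as a block (adjusted p = 0.0218 over 193 bins), by -0.172 in the same fit without CTCF-AID del13-33 clone 2 replicate 3 (adjusted p = 0.0175), and by -0.17 without the block (adjusted p = 0.787). All 4 CTCF-AID parental libraries lay below all 3 untagged ones there.

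CTCF-AID del13-33 clone 2 replicate 3 lay far below the other 7 libraries of its group in contacts within segment 3, the 1020 kb between boundaries 2 and 3, at -0.18 in log2 of observed over expected. It was the 1 value singled out among 81 groups of values, where chance singles out about 1 in 20.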

How the results depend on the processing

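Mean insulation kept its sign and stayed uncalled under all 17 alternatives, from -0.0444 to -0.091. With a block, with a library left out or with a p doubled from a single tail, no exact p under 0.05 was possible. Those alternatives could not have been called, so only their sign and size are informative. In the clones it stayed called over libraries under all 4 alternatives with a test, from -0.0475 to -0.107. Bin calls in the parental lines numbered 3. They became 19 with the run as a block, 0 with the replicate block, 0 from raw counts, 21 with a 200-kb window, 0 with median bins, 1 (boundary 2, none of the 3) in a fit of all 22 libraries, 5 in that fit with the run as a block (added after seeing the data), and 0 to 3 with a library left out. With the run as a block, the clones had 33 bins, a fit that was not repeated without clone 2 replicate 3. The interaction with that block had 1 bin, with or without this library. The 1 bin pair became 0 with either block, raw counts, a pseudocount of 2, 40-kb bins or all 22 libraries with or without the run block, and 0 to 1 with a library left out. In the clones 3 distance classes were called within runs, with clone 2 replicate 3 kept.

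Among values by library and by bin, signs turned only for uncalled ones: 200 to 500 kb to -0.371 from raw counts; over 2000 kb to -0.0537 with the replicate block and -0.0451 within runs; within segment 6 to 0.0077 and 0.0053; peak contacts to -0.0084 at 200 to 600 kb; boundary 3 to -0.018, -0.0067, -0.0046 from raw counts and -0.0044 with median bins; boundary 6 to -0.035, -0.012 and -0.0088 with a 200-kb window; and, without clone 2 replicate 3, the clones' 200 to 500 kb to 0.0072, within segments 2, 3, 5 and 6 to 0.0028, 0.029, 0.0057 and 0.0022, and across boundary 6 to 0.028. Leaving out a library gave ranges of -0.37 to 0.416 (200 to 500 kb), -0.215 to 0.656 (over 2000 kb), -0.0071 to 0.021, -0.026 to 0.012 and -0.028 to 0.032 (within segments 2, 6 and 7), -0.0018 to 0.065, -0.00802 to 0.0903 and -0.019 to 0.072 (across boundaries 1, 2 and 5), -0.013 to 0.039 (peak contacts), -0.022 to 0.086 (boundary 3) and -0.035 to 0.075 (boundary 6). The causes were not tested.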
